A study of Homo sapiens with 6 samples.

Results

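Insulin-like growth factor (IGF) signalling is read here through 10 genes: PAPPA, which encodes the secreted metalloprotease pregnancy-associated plasma protein A, the binding protein genes IGFBP2 to IGFBP7, and the receptor genes IGF1R, IGF2R and INSR. They were taken by symbol from gene counts that list 59050 symbols, all 10 were present, and all 10 passed the filter on low counts. The members were chosen by their gene counts in these same 6 libraries, with the difference between the groups known, so their levels and differences are given as a description without a test. The cells were H2122, an established human lung cancer line, grown in RPMI-1640 with fetal bovine serum and treated with vehicle. The 3 knockout libraries carry a SMARCA4 knockout and the 3 parental libraries are labelled WT. The titles carry the number 1 for every knockout library and the numbers 1, 3 and 6 for parental replicates 1, 2 and 3, which the labels do not explain. Should the number stand for a clone, all 3 knockout libraries share one, and its own traits cannot be told apart from the knockout. Whether replicates were grown separately is not stated in the labels. The p-values below therefore measure only the spread between these libraries, and that spread may be technical.

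IGF1 and IGF2 act mainly through IGF1R, a receptor tyrosine kinase, and also through INSR, the insulin receptor, with which IGF1R can form hybrids. The IGFBPs hold the ligands in the extracellular space and can both restrain and prolong their action. PAPPA cuts IGFBP4 and IGFBP5, and less readily IGFBP2, and so frees the ligand near its receptor, while the stanniocalcins STC1 and STC2 inhibit PAPPA. IGF2R, the cation-independent mannose 6-phosphate receptor, takes up IGF2 for breakdown and sorts lysosomal enzymes, and it does not signal through a kinase.

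The promoters of the protease and of its main substrates are shown because these 3 genes differed in different ways: PAPPA and IGFBP4 were higher in the knockout and IGFBP5 was lower. Each is the 250 bases before the gene start in RefSeq on GRCh38.p14, written 5′ to 3′ on the strand of the gene. Capitals mark matches, on either strand, to TATAAA (the TATA box), GGGCGG (the GC box), GGAATG (a TEAD motif), TGANTCA (an AP-1 motif) or CAGGTG (an E2-box). The windows are chr9:116153541-116153790 (plus strand) for PAPPA, chr17:40443200-40443449 (plus strand) for IGFBP4 and chr2:216695550-216695799 (minus strand) for IGFBP5.
PAPPA: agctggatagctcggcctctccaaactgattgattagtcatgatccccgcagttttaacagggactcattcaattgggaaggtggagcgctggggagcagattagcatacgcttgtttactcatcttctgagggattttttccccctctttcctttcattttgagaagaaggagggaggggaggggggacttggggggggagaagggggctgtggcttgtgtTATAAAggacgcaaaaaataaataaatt
IGFBP4: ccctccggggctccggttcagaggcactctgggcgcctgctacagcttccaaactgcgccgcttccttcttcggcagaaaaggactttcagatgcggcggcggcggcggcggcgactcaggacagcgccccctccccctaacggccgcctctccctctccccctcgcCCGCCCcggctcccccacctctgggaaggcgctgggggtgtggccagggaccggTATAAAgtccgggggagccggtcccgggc
IGFBP5: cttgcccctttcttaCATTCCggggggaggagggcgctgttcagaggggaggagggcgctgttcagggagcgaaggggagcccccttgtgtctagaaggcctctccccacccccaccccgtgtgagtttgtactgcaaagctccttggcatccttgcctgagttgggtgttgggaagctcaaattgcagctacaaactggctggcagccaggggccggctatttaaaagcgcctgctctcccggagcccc
The capitals in PAPPA are TATAAA, which begins 28 bases before the start. IGFBP4 holds the same letters 29 bases before its start and a GC box 83 bases before it. In IGFBP5 the capitals are the TEAD letters on the opposite strand, 235 bases before the start. Windows were found for 9 of the 10 members, all but IGFBP7, and 8 of these 9 have 1 window each. Among the 9, TATAAA stood only in the windows of PAPPA and IGFBP4, against 10.7% of all 35116 RefSeq windows of this length. The GC box was found in 42.6% of all windows, the TEAD letters in 11.9%, the AP-1 letters in 6.57% and the E2-box in 17.5%. PAPPA had 5 CpG pairs in its window, IGFBP5 had 8 and IGFBP4 had 24, where the median window had 11. The receptor genes had more, with 48 in IGF1R, 33 in IGF2R and 28 in INSR, and so did IGFBP3 with 32. These matches are letters in a window and not sites of binding.

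Each library held 55120937 to 59917980 reads assigned to genes, so 3 reads correspond to 0.0497 to 0.0544 CPM (counts per 1000000 reads, with library sizes scaled by TMM). SMARCA4, the knocked-out gene, stood at 20.7, 19.3 and 24.9 CPM in knockout cells against 232, 214 and 335 CPM in parental cells. Parental replicate 3 stood apart from the other parental libraries. Its counts differed from theirs with a chi-square of 409 and 426 per degree of freedom, against 9.08 between parental replicates 1 and 2. Of 8 epithelial markers, all were detected, and their summed level ranged from 3177 to 3443 CPM in the knockout and from 7783 to 8219 CPM in parental cells. Each of the 8 had a lower mean in the knockout, but by very unlike amounts. The narrowest difference was that of KRT18 (809 against 1083 CPM) and the widest that of CLDN4 (4.10 against 496 CPM). CDH1 was at 5.56 against 341 CPM. The lung markers were low throughout, at a summed 0.985 to 1.69 CPM over 7 genes, and SFTPC had at most 3 reads in any library. Among 8 fibroblast markers the sum was 53.4 to 58.1 CPM in knockout cells against 39.3 to 110.1 CPM in parental cells, with THY1 at 0 reads in all 6. Its genes went both ways. The means of LUM (26.8 against 0.368 CPM) and COL3A1 (5.10 against 0.158 CPM) were higher in the knockout. That of COL1A1 was lower (23.5 against 64.5 CPM), and DCN, COL1A2, PDGFRB and PDGFRA had at most 13 reads in any library. The smooth muscle list of 5 genes summed to 261 to 269 CPM in knockout cells against 14.8 to 37.3 CPM in parental cells. TAGLN alone carried this difference, with a mean of 256 CPM in knockout cells against 19.7 CPM in parental cells. ACTA2 was at 9.92 against 9.09 CPM, and MYH11, CNN1 and DES had at most 31 reads in any library. The sums stayed under 2.1 CPM for 6 endothelial and 6 haematopoietic markers, with PTPRC at 0 in all libraries, and under 0.68 CPM for 7 trophoblast markers, with CSH1 and HLA-G at 0. The part of any other cell type in the results was not tested, and in bulk RNA fewer cells of a type and less RNA per cell cannot be told apart.

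PAPPA had the largest difference of the 10 genes. It lies on chromosome 9 (116153804 to 116402322, GENCODE 29 on GRCh38). Its level was 386, 381 and 328 CPM in knockout replicates 1, 2 and 3 and 4.55, 4.54 and 4.66 CPM in parental cells. The groups lie far apart, and the 3 parental values are almost the same, parental replicate 3 included. The means were 365 ± 32.3 CPM in knockout cells against 4.58 ± 0.0669 CPM in the parental group (SD, n = 3 each), a ratio of 79.6. The fitted log2 difference, knockout less parental, was 6.31 (SE 0.13), and 6.28 (SE 0.09) without parental replicate 3. Of 17809 genes tested, 42 (0.236%), PAPPA among them, had a log2 difference at least as large. PAPPA shares 21.2% of its exon bases with the antisense gene PAPPA-AS1, which held between 2 and 23 reads per library. How the counting treated reads in the shared bases is not given in the sources used here.

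**Figure D1:**
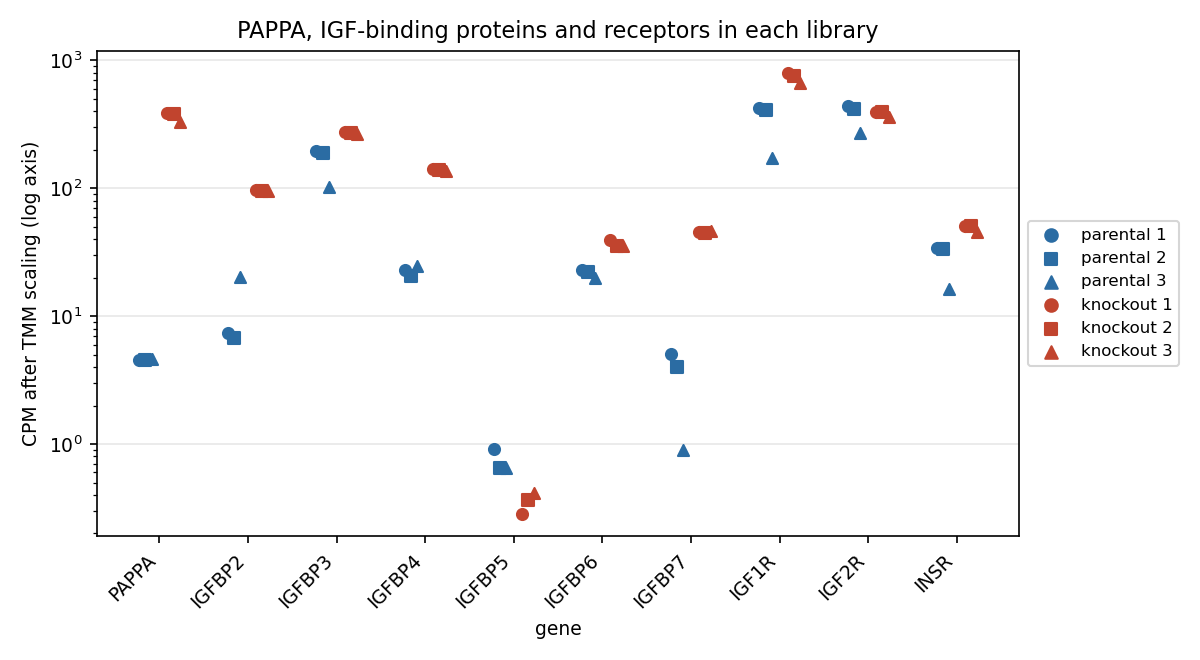
Level of each of the 10 genes in each library, in CPM after TMM scaling on a log axis, parental libraries in blue and knockout libraries in red, with one marker shape per replicate number. PAPPA lies between 328 and 386 CPM in knockout cells against 4.54 to 4.66 CPM in parental cells, IGFBP5 alone lies wholly lower in the knockout, and parental replicate 3 leaves the other parental libraries at IGFBP2, IGFBP3, IGFBP7 and the 3 receptors.

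The main substrates of PAPPA, IGFBP4 and IGFBP5, differed in opposite directions. IGFBP2, which PAPPA cuts less readily, was higher in the knockout, as given further below. IGFBP4 (chromosome 17, 40443461 to 40457731) was at 140.2, 138 and 135 CPM in knockout cells against 22.9, 20.5 and 24.7 CPM in parental cells. The groups do not overlap, and all 3 libraries of each group sit close together. The log2 difference was 2.60 (SE 0.11), or 6.07 times between the means. IGFBP5 (chromosome 2, 216672105 to 216695525) had 16, 20 and 25 reads in knockout cells against 52, 39 and 37 reads in parental cells. These are 0.283, 0.363 and 0.414 CPM against 0.911, 0.653 and 0.651 CPM. The groups do not overlap here either, but every library holds few reads, and counting error alone is large at this depth. The log2 difference was -1.06 (SE 0.26), and it ranged from -1.18 to -0.88 with 1 library left out.

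IGFBP2 is the direct neighbour of IGFBP5. The genes face each other on chromosome 2, IGFBP2 (216632828 to 216664436) on the plus strand and IGFBP5 on the minus strand, with 7.67 kb between their ends. IGFBP2 stood at 96.5, 95.8 and 95.7 CPM in knockout cells against 7.41, 6.75 and 20.2 CPM in parental cells. The high parental value is that of replicate 3, at 2.85 times the mean of the other 2, and it still lies far under the knockout. The log2 difference was 3.07 (SE 0.46), and 3.71 (SE 0.06) without parental replicate 3. So the neighbours differed in sign, with IGFBP2 higher and IGFBP5 lower in the knockout.

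IGFBP7 (chromosome 4, 57030773 to 57110385), a binding protein of low affinity for IGFs that is abundant around vessels, was at 45.7, 45.1 and 46.0 CPM in the knockout. In the parental libraries it was at 5.03, 4.02 and 0.897 CPM. Parental replicate 3 was here the lowest library, with 51 reads, 5.04 times under the mean of the other 2. The fitted difference was 3.78 on the log2 scale (SE 0.60), and 3.29 (SE 0.09) without that library. IGFBP7 shares 18.9% of its exon bases with POLR2B and the antisense gene IGFBP7-AS1. The strand setting of the counts is not given in the sources used here, so reads of a gene and its antisense partner cannot be told apart. IGFBP7-AS1 was itself counted at 60, 76 and 67 reads in knockout cells against 7, 8 and 1 in the parental libraries, far under the 2484 to 2776 reads of IGFBP7 in the knockout.

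IGFBP3 and IGFBP6 differed less. IGFBP3 (chromosome 7, 45912245 to 45921874), the main carrier of IGFs in serum, was at 276, 272 and 267 CPM in knockout cells against 197, 188 and 102 CPM in parental cells. The knockout was higher than every parental library, and the distance to replicate 3 was the widest. The log2 difference was 0.74 (SE 0.25), and 0.45 (SE 0.04) without parental replicate 3. IGFBP6 (chromosome 12, 53097436 to 53102345), which prefers IGF2 over IGF1, was at 39.6, 35.6 and 35.3 CPM in knockout cells against 23.0, 22.1 and 19.9 CPM in parental cells. Its log2 difference was 0.77 (SE 0.11), and 0.66 (SE 0.06) without parental replicate 3.

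Per length of exon, which allows levels of different genes to be set side by side, the binding protein transcripts made a larger and a different pool in the knockout. The summed RPKM (CPM per kilobase of exon) of IGFBP2 to IGFBP7 was 197, 192 and 190.1 in knockout cells against 75.0, 70.5 and 53.1 in the parental libraries. IGFBP3 held 52.6% ± 9.26 of the parental pool and 30.7% ± 0.211 of the knockout pool (SD, n = 3). IGFBP4 held 16.1% ± 4.42 of the parental and 32.4% ± 0.192 of the knockout pool. IGFBP7 went from 2.43% ± 1.37 to 12.2% ± 0.273, and IGFBP2 from 4.02% ± 3.43 to 10.4% ± 0.158. The IGFBP2 share was 2.07%, 2.01% and 7.97% in parental replicates 1, 2 and 3, and without replicate 3 its parental mean was 2.04%. IGFBP6 held 24.6% ± 2.76 and 14.1% ± 0.647, so its share was smaller in the knockout although its level was higher. IGFBP5 stayed under 0.2% of the pool in each library. With the longest annotated transcript as the length, IGFBP3 held 65.4% of the parental and 43.2% of the knockout pool, and IGFBP4 10.7% and 24.1%.

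**Figure D2:**
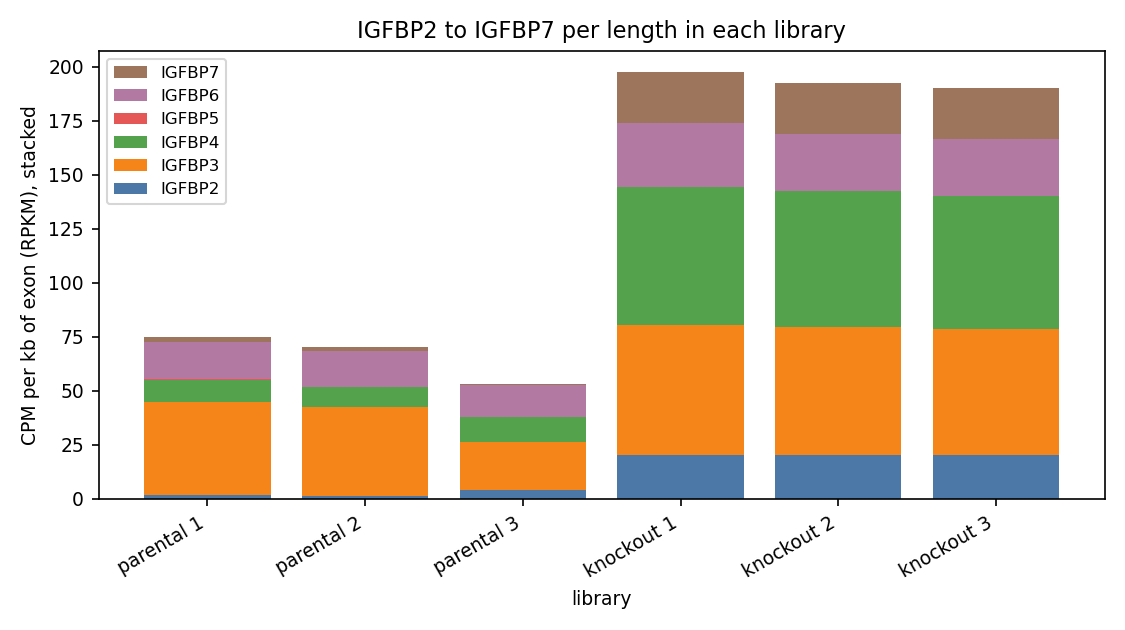
Stacked level of IGFBP2 to IGFBP7 in each library, in CPM per kilobase of exon (RPKM), 1 bar per library. The knockout bars reach 190.1 to 197 and the parental bars 53.1 to 75.0, IGFBP3 is the largest block of each parental bar, and IGFBP4 and IGFBP3 are about level in the knockout.

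The order of the members by RPKM changed with the genotype. In the knockout it was IGFBP4 (62.7 ± 1.11), IGFBP3 (59.4 ± 0.981), IGF1R (53.3 ± 4.69), PAPPA (31.5 ± 2.79), IGFBP6 (27.4 ± 1.78), IGFBP7 (23.6 ± 0.239), IGF2R (21.5 ± 1.05), IGFBP2 (20.1 ± 0.0883), INSR (4.67 ± 0.305) and IGFBP5 (0.0548 ± 0.0103), as mean ± SD with n = 3. Of these neighbours, only PAPPA and IGFBP6 overlapped between libraries. With the longest transcript as length, IGFBP3 came before IGFBP4 and IGFBP7 before IGFBP6. In the parental group the order was IGFBP3 (35.5 ± 11.5), IGF1R (24.1 ± 10.2), IGF2R (21.0 ± 5.17), IGFBP6 (16.1 ± 1.20), IGFBP4 (10.3 ± 0.973), INSR (2.67 ± 0.959), IGFBP2 (2.40 ± 1.59), IGFBP7 (1.72 ± 1.12), PAPPA (0.396 ± 0.00578) and IGFBP5 (0.115 ± 0.0232). There the library ranges of the first 4 ran into each other in order, as did those of INSR, IGFBP2 and IGFBP7. PAPPA thus went from the 9th to the 4th place. Its ratio to IGFBP4 per length was 0.524, 0.525 and 0.461 in knockout cells against 0.0377, 0.0421 and 0.0358 in the parental libraries.

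Among the receptors, IGF1R (chromosome 15, 98648539 to 98964530) was at 799.6, 759 and 672 CPM in knockout cells against 427, 410.1 and 172 CPM in parental cells. Every knockout library was above every parental one, and parental replicate 3 was the lowest by far. Fitted over all 6 libraries, IGF1R differed by 1.14 on the log2 scale (SE 0.35), and 0.78 (SE 0.06) without parental replicate 3. INSR (chromosome 19, 7112255 to 7294034) was at 50.7, 50.7 and 45.2 CPM in knockout cells against 34.2, 33.3 and 16.4 CPM in parental cells. Its log2 difference was 0.81 (SE 0.28), and 0.49 (SE 0.06) without parental replicate 3, so both signalling receptors showed the same layout. The ratio of IGF1R to INSR per length was 11.4 ± 0.369 in knockout cells against 8.83 ± 0.829 in the parental group.

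IGF2R (chromosome 6, 159969099 to 160113507) was the only member whose groups overlapped. It was at 396, 394 and 362 CPM in knockout cells against 437, 419 and 269 CPM in parental cells. The knockout values lie under parental replicates 1 and 2 and over replicate 3. The log2 difference was 0.03 (SE 0.20) with all 6 libraries and -0.20 (SE 0.04) without parental replicate 3, and it also took a negative sign with RLE factors (-0.020). No direction is therefore given for IGF2R.

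**Figure D3:**
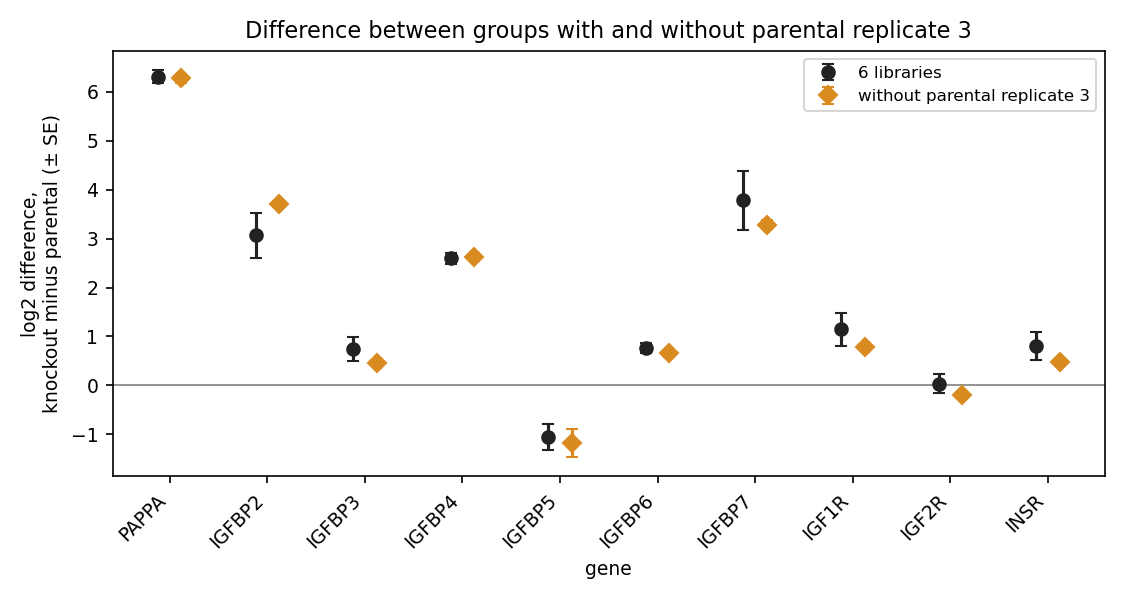
Log2 difference, knockout minus parental, for each gene with its SE, from all 6 libraries (black circles) and without parental replicate 3 (orange diamonds). PAPPA and IGFBP4 hardly move (6.31 and 6.28, 2.60 and 2.62), IGFBP2 goes from 3.07 to 3.71 and IGF2R from 0.03 to -0.20.

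The 10 genes together had a median log2 difference of 0.97, against 0.02 over all genes tested. For 9 genes no knockout value fell within the parental range or the reverse, where 49.8% of all tested genes showed no overlap. At the threshold used for other genes (edgeR's quasi-likelihood test, adjusted p below 0.05), 5 members were higher, 1 was lower and 4 did not pass, where 27.6% of all tested genes passed, 13.3% rising and 14.3% falling. Without parental replicate 3 the counts were 8 higher and 2 lower, IGF2R the second of these, where 61.6% of 18372 genes passed, 30.8% rising and 30.8% falling. Since this contrast chose the members, nothing is read from these counts.

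The members also differed in how far the parental libraries spread. Parental replicate 3 was at least 2-fold from the mean of parental replicates 1 and 2 for 4 of 10 members, where 19.6% of all tested genes were. Those 4 were IGFBP2 (2.85 times higher), IGFBP7 (5.04 times lower), IGF1R (2.43 times lower) and INSR (2.06 times lower). IGFBP3 was 1.89 times and IGF2R 1.59 times lower. PAPPA (1.03), IGFBP4 (1.14), IGFBP6 (0.881) and IGFBP5 (0.832) had a ratio close to 1. For comparison, parental replicate 2 was 2-fold from replicate 1 for 0.679% of all genes. The coefficient of variation over the members had a median of 5.70% in knockout cells against 28.5% in the parental group, and it was larger in the parental group for 9 of 10, PAPPA being the exception (8.85% and 1.46%). The same share over all tested genes was not computed. Parental replicate 3 stood apart over all genes too, so this count is not read as a trait of the members.

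The genes whose log2 CPM followed that of PAPPA most closely over the 6 libraries, among 10973 with a mean of at least 5 CPM, were ETHE1, PDE4B, MPRIP, LUM and RAB31. Their Pearson correlation was 0.9996 to 0.9998, a description over 6 points that share the same division into 2 groups. The differences were of very unlike size, from 0.86 on the log2 scale for MPRIP to 6.18 for LUM, a matrix proteoglycan gene that is also on the fibroblast marker list. LUM stood at 26.8 ± 2.40 CPM in knockout cells against 0.368 ± 0.0168 CPM in the parental group. For IGFBP3 the closest were SERPINB8, PHLDB2, GPX8, TGOLN2 and RAB30, with correlations of 0.9993 to 0.9996. IGFBP3 was itself low in parental replicate 3, so genes picked for following it were low there by that choice. PHLDB2, for example, was at 18.0 CPM there against a mean of 90.6 CPM in the other 2 parental libraries.

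Other genes around the axis were read from 10 lists of 150 distinct genes, of which 118 were tested. The lists also hold neighbouring genes and lysosomal enzymes, so the pooled values are not those of the IGF axis alone. By edgeR's quasi-likelihood test 18 rose, 23 fell and 77 did not pass, so 34.7% were called, where 27.6% of all genes were. Their median log2 fold change was 0.02, as over all genes. Without parental replicate 3, 49 of 120 tested list genes rose and 48 fell (80.8% called), where 61.6% of all 18372 genes tested in that fit were called. By direction, 13.3% of all genes rose and 14.3% fell with 6 libraries, and 30.8% rose and 30.8% fell without parental replicate 3. The counts of each list below stand beside these shares, and no list was tested as a set. With any one of the other 5 libraries left out, between 11 and 15 rose and between 7 and 14 fell.

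The ligands were scarce. IGF2 had 0, 1 and 1 reads in the knockout libraries with 0 in each parental library, and INS had 0 in all 6, so both lay at or under the limit of 3 reads. IGF1 was at 0.230, 0.272 and 0.282 CPM in knockout cells against 0.245, 0.368 and 0.721 CPM in parental cells, overlapping ranges (log2 fold change -0.76, edgeR adjusted p = 0.252). IGFALS, which encodes the scaffold of the serum complex, had at most 1 read. IGFBP1 (chromosome 7, 18.6 kb from IGFBP3) was at 11.8 to 12.4 CPM in knockout cells against 3.41, 4.12 and 0.193 CPM in parental cells. The groups do not overlap, but the log2 fold change of 2.23 (SE 0.87) did not pass (edgeR adjusted p = 0.113), and leaving out libraries gave adjusted p from 4.14e-08 to 0.236. It passed, at 1.63, without parental replicate 3, and with DESeq2 (adjusted p = 0.0257). So 0 of the 2 tested genes of this list passed by edgeR, 1 had an unadjusted p under 0.05, DESeq2 called 1 and limma-voom 0.

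In the pappalysin list 1 of 3 tested genes rose, none fell by edgeR, DESeq2, limma-voom or an unadjusted p, and 2 did not pass. With parental replicate 3 left out, 1 rose and 2 fell. STC1, an inhibitor of PAPPA, rose from 0.334 ± 0.0534 to 1.92 ± 0.207 CPM (log2 fold change 2.52, SE 0.22, edgeR adjusted p = 0.000497). The other two tested genes were named after their values were seen. STC2 was far more abundant than STC1, at 919, 971 and 974 CPM in knockout cells against 995, 1059 and 142 CPM in parental cells. Only parental replicate 3 was low, and the log2 fold change was 0.38 with it (adjusted p = 0.709) and -0.15 without it (adjusted p = 0.0203). PAPPA2, the paralog of PAPPA, which cuts IGFBP3 and IGFBP5, was at 0.760, 0.617 and 0.961 CPM in knockout cells against 13.5, 10.9 and 0.0528 CPM in parental cells. Parental replicate 3 held 3 reads of it and the others 770 and 648. The log2 fold change of -3.38 did not pass (adjusted p = 0.128), and it was -4.00 without parental replicate 3 (adjusted p = 1.10e-09).

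Of 10 tested genes for other proteases reported to cleave IGFBPs, 3 rose and 4 fell, leaving 3 that did not pass. Without parental replicate 3, 3 rose and 7 fell, in a fit where 61.6% of all genes were called. PLAT, tissue plasminogen activator, fell from 19.4 ± 6.07 to 0.653 ± 0.0726 CPM (log2 fold change -4.89, adjusted p = 0.00019). ADAM28 fell from 43.9 ± 5.35 to 4.18 ± 0.375 CPM (-3.39, adjusted p = 5.43e-05). MMP7, matrilysin, rose from 1.71 ± 0.862 to 8.74 ± 0.865 CPM (2.35, adjusted p = 0.0082). ADAM12 rose from 15.9 ± 3.90 to 30.6 ± 0.656 CPM (0.94, adjusted p = 0.0123), which missed the threshold once any single knockout library was dropped (adjusted p 0.0524 to 0.0564). The p-values are edgeR's, and MMP2, MMP9, PLG and KLK3 were too low to test.

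Of 8 tested genes whose products carry an IGFBP domain outside the family, 5 rose and 3 did not pass. Over all genes tested, 13.3% rose. None of the 8 fell by edgeR, DESeq2, limma-voom or an unadjusted p. Without parental replicate 3, when ESM1 also passed the filter, 8 of 9 tested genes rose and 1, ESM1, fell. In that fit 30.8% of all genes rose and 30.8% fell. ESM1 was named after its values were seen. The matricellular gene CCN5 rose from 0.449 ± 0.0121 to 8.90 ± 0.811 CPM (log2 fold change 4.30, edgeR adjusted p = 3.81e-05) and CCN3 from 18.0 ± 2.46 to 83.1 ± 4.74 CPM (2.21, adjusted p = 0.000153). CRIM1, a membrane protein gene, rose from 184 ± 13.4 to 501 ± 13.2 CPM (1.44, adjusted p = 0.00028). CCN2, connective tissue growth factor, was at 10.4, 10.1 and 2.34 CPM in parental cells and at 37.4, 40.6 and 38.4 CPM in the knockout (2.35, adjusted p = 0.0214). CCN2 missed the threshold once any single knockout library was dropped (adjusted p 0.0661 to 0.0709). The remaining riser, HTRA1, named after its values were seen, is counted among the proteases too (0.47, edgeR adjusted p = 0.0228). Its adjusted p reached 0.0987 with 1 library left out. On this list 3 genes rose with any single knockout library dropped, and 4 with parental replicate 1 or 2 dropped.

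**Figure D4:**
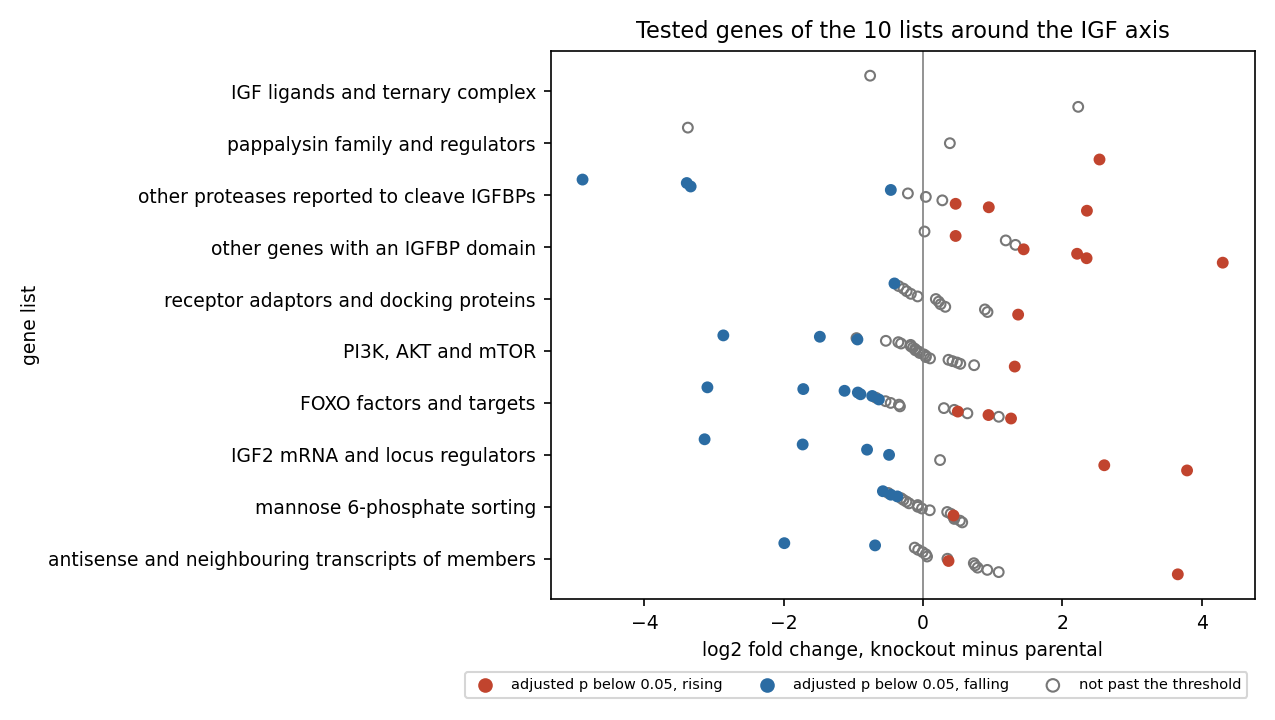
Log2 fold change, knockout minus parental, of every tested gene in the 10 lists, 1 row per list, with filled points for genes past the edgeR threshold and open circles for the rest. The widest changes are among proteases and IGFBP domain genes, from PLAT at -4.89 to CCN5 at 4.30, and most genes of the receptor adaptor, PI3K and sorting lists are open circles near 0.

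Downstream of the receptors, of 13 tested adaptors, 1 rose and 1 fell, leaving 11 that did not pass. With parental replicate 3 left out, 5 rose and 3 fell. IRS2, a docking protein of the insulin and IGF receptors, rose from 45.7 ± 5.78 to 117.5 ± 6.90 CPM (log2 fold change 1.36, SE 0.13, edgeR adjusted p = 0.00068). PTPN1, a phosphatase of the insulin receptor, fell from 107.7 ± 9.24 to 81.0 ± 3.0 CPM (-0.41, adjusted p = 0.0293). The PTPN1 call was lost without any one library other than parental replicate 3 (adjusted p 0.0902 to 0.139). IRS1, named after its values were seen, was at 180, 174 and 167 CPM in knockout cells against 123, 114 and 37.5 CPM in parental cells, the layout of IGF1R and INSR, and did not pass (0.92, adjusted p = 0.162). It passed without parental replicate 3, at 0.50 (adjusted p = 1.34e-06).

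Of 24 tested PI3K, AKT and mTOR genes, 1 rose and 3 fell, leaving 20 that did not pass. Without parental replicate 3, 7 rose and 10 fell. PIK3R3, a regulatory subunit, fell by 0.94 on the log2 scale (edgeR adjusted p = 0.00781, and 0.0537 without knockout replicate 2). INPP4B, a phosphoinositide phosphatase, changed from 59.5 ± 25.3 to 21.3 ± 1.32 CPM (-1.48, adjusted p = 0.023), and PIK3CD, a catalytic subunit, from 6.50 ± 2.39 to 16.2 ± 0.965 CPM (1.31, adjusted p = 0.0196). The INPP4B call was lost without any library other than parental replicate 3 (adjusted p 0.0623 to 0.0962). PIK3CD missed the threshold with parental replicate 1 or any single knockout library dropped (adjusted p 0.0507 to 0.0755).

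Of 19 tested FOXO factors and targets, 3 rose and 7 fell, leaving 9 that did not pass. With parental replicate 3 left out, 7 rose and 11 fell, in a fit where 61.6% of all genes were called. The number falling was 8 with DESeq2, 3 with limma-voom and 2 with the replicate number as a block. It was between 1 and 3 with any library other than parental replicate 3 left out. SOD2, mitochondrial superoxide dismutase, rose from 163 ± 14.1 to 390.0 ± 10.6 CPM (log2 fold change 1.26, edgeR adjusted p = 0.000515), and CDKN1B, a cell cycle inhibitor, from 32.4 ± 5.24 to 62.1 ± 2.61 CPM (0.94, adjusted p = 0.00479). BCL2L11, a promoter of apoptosis, fell from 35.9 ± 1.79 to 21.6 ± 1.27 CPM (-0.73, adjusted p = 0.00331). BCL6 fell from 18.0 ± 1.07 to 11.6 ± 0.542 CPM (-0.64, adjusted p = 0.00805), and did not pass when knockout replicate 2 or 3 was dropped (adjusted p 0.0575 and 0.0502).

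Of 7 tested regulators of IGF2 and its mRNA, 2 rose and 4 fell, leaving 1 that did not pass. Without parental replicate 3, 3 rose and 4 fell. HMGA2, a chromatin protein gene, fell from 19.5 ± 10.3 to 2.22 ± 0.523 CPM (log2 fold change -3.14, edgeR adjusted p = 0.00602). PLAG1, a transcription factor of the IGF2 promoter, fell from 9.53 ± 2.91 to 2.87 ± 0.296 CPM (-1.73, adjusted p = 0.00476). IGF2BP1, an mRNA binding protein gene, rose from 0.0580 ± 0.0212 to 0.361 ± 0.0178 CPM (2.60, adjusted p = 0.00248). It had only 20 or 21 reads in each knockout library and 2 or 4 in each parental library. Its more abundant paralogs, named after their values were seen, fell. IGF2BP3 went from 103.9 ± 6.21 to 74.1 ± 2.32 CPM (-0.49, edgeR adjusted p = 0.011). IGF2BP2 went from 42.8 ± 11.6 to 24.5 ± 0.797 CPM (-0.81, edgeR adjusted p = 0.0359). Their edgeR adjusted p reached 0.0747 and 0.128 with 1 library left out. H19, the non-coding neighbour of IGF2, had 46 reads in knockout cells against 3 in the parental group, 15.6 times as many after scaling (95% counting interval 5.00 to 78.2, edgeR adjusted p = 0.0067).

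Of 19 tested genes around the sorting function of IGF2R, 1 rose and 3 fell, leaving 15 that did not pass. With parental replicate 3 left out, 8 rose and 7 fell. SORT1, sortilin, fell from 107.9 ± 2.23 to 72.3 ± 1.75 CPM (log2 fold change -0.58, edgeR adjusted p = 0.0041). CTSD, the lysosomal protease cathepsin D, fell from 329.5 ± 11.1 to 239 ± 8.86 CPM (-0.46, adjusted p = 0.0144), and missed the threshold with any single knockout library dropped (adjusted p 0.0734 to 0.0946). GNPTAB, which builds the mannose 6-phosphate tag, changed by -0.37 (adjusted p = 0.0436), and HEXA, a lysosomal hexosaminidase, by 0.44 (adjusted p = 0.0362). The GNPTAB and HEXA calls were both lost without any library other than parental replicate 3, at adjusted p of up to 0.178 and 0.129.

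Of 15 tested antisense or neighbouring genes, 2 rose and 2 fell, leaving 11 that did not pass. The distance of the listed neighbours to a member was not measured, so they need not lie close to it. Without parental replicate 3, 7 of 16 tested rose and 4 fell. IGFBP7-AS1 rose from 0.0914 ± 0.0642 to 1.18 ± 0.172 CPM (log2 fold change 3.66, edgeR adjusted p = 0.00333), beside its host region IGFBP7. ADCY1, an adenylate cyclase gene on this list, fell by 0.69 on the log2 scale (adjusted p = 0.00883), a call lost without knockout replicate 2 (adjusted p = 0.054). TNS3, a tensin gene, changed by 0.36 (adjusted p = 0.0278, up to 0.13 with a library other than parental replicate 3 left out). TNS1, another tensin gene, had 5 to 16 reads in knockout cells against 28 to 50 in the parental libraries (-1.99, adjusted p = 0.026). With 1 library left out its adjusted p was up to 0.109. TNS1 missed the threshold when knockout replicate 2, knockout replicate 3 or parental replicate 2 was the library dropped. PAPPA-AS1 did not pass the filter with all 6 libraries, with 23, 13 and 3 reads in knockout cells against 4, 2 and 3 in the parental libraries.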

How the data were processed

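RNA-seq read counts of 6 libraries were analysed, 3 per group. Each deposited file holds raw counts per gene symbol for 1 library. Per the submitters' processing notes, TopHat2 2.1.1, HTSeq 0.11.0 and hg38 were used; which annotation release and strand setting the counting used is not given in the sources used here. Classes of unassigned reads (13.8% to 15.3% of each file) were left out of library sizes and tests.

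The test was edgeR's robust quasi-likelihood F-test (edgeR 4.0.16, R 4.3.3), two-sided, with the genotype alone in the model, after filterByExpr with default settings and TMM scaling. Benjamini-Hochberg adjustment ran over 17809 genes, with a threshold of 0.05. The SE was derived from the F value. Lengths and positions are from GENCODE 29 (GRCh38), with the union of exons as length. Correlations used log2 CPM with a prior count of 2, and the 2-fold comparison of parental replicate 3 over all genes added 0.1 CPM.

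The members, lists and tests were chosen with earlier results of these data known. Named genes were the members, SMARCA4, the passing genes of each list (the 4 with the smallest adjusted p where more passed, or the 2 highest by CPM where none did), and the 5 genes closest to PAPPA and to IGFBP3. One gene that the rule names is not reported here. The results were recomputed with DESeq2 1.42.0, with limma-voom 3.58.1, with other scaling (upper-quartile, RLE), with a replicate block, with each library left out, and with the low-count filter removed or set to 1 CPM in 3 libraries. Intervals and limits cover counting error only.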

Additional observations from a re-analysis of the deposited data

How the results depend on the processing

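Of the 10 members, 9 kept the sign of their log2 difference under every alternative run that could give a value; the filter of 1 CPM in 3 libraries removed IGFBP5. IGF2R changed sign, at -0.020 with RLE factors and with DESeq2, -0.034 with no low-count filter and -0.20 without parental replicate 3, and its highest value with 1 library left out was 0.15. With 1 library left out, the genes rising ranged from 1221 to 5665 and those falling from 1471 to 5660, and the list genes from 11 to 49 rising and from 7 to 48 falling; the highest counts are those without parental replicate 3. With the replicate number as a block, 1378 genes rose and 1662 fell, and 11 list genes fell. Whether the numbers pair the libraries is not given in the labels. Same-numbered libraries had correlations of -0.05, 0.00 and -0.07 between their deviations from the group means, and the others -0.15 to 0.14. With 3 libraries per group, and parental replicate 3 apart from the rest, these correlations cannot decide it. Of the 34 named genes tested beside the members, IGF1 and IGFBP1 had no call to lose. Among the rest, 13 lost their call in at least 1 alternative, 7 of them with the block. The filter of 1 CPM in 3 libraries kept 29 of the 34. IGFBP1 was called with DESeq2 and without parental replicate 3. Low counts limit IGFBP5, H19, IGF2BP1, IGFBP7-AS1, TNS1 and the ligand genes. The cause of these dependences was not tested.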
